A study of Mus musculus with 6 samples.

Results

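Transcripts of neutrophil granule genes were followed in RNA of regulatory T cells (Tregs) from the BM of mice with chronic myeloid leukemia (CML) and of naive mice. The 10 genes were taken by name from the 36930 features of the deposited tables, and all 10 were found: Elane, Mpo, Prtn3, Ctsg, Ngp, Camp, Ltf, Lcn2, S100a8 and S100a9. Tregs came from 3 CML and 3 naive Foxp3-DTR-GFP mice at post natal week 8, with 1 library for each mouse. In this strain, the Foxp3 locus drives both the diphtheria toxin receptor and GFP in the CML mice and in the controls alike. CML was induced by i.v. transfer of syngeneic LSKs (lin-Sca-1+c-kit+ stem and progenitor cells) carrying a BCR-ABL1-GFP retrovirus, without irradiation, and BM was taken at day 15 after induction. Naive mice received no leukemic cells. The leukemic cells of this model express GFP from the retrovirus, the same fluorescent protein that marks Foxp3+ cells in the recipients. As they were not irradiated, the recipients kept their own hematopoietic cells. Tregs were purified by FACS, and the study's Treg gate was set within CD4+ T cells.

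Neutrophils store antimicrobial proteins in granules that are filled in sequence as the cell matures in the BM. Primary (azurophil) granules are filled in promyelocytes, and their genes Elane, Mpo, Prtn3 and Ctsg are largely silent later in the lineage. Secondary (specific) and tertiary granules are filled from the myelocyte stage onwards, when Ngp, Camp, Ltf and Lcn2 are transcribed. S100a8 and S100a9 encode the subunits of calprotectin, a calcium-binding protein of the cytosol that is among the most abundant proteins of neutrophils and is also made by monocytes. T cells are not known as a main source of these transcripts, and CML is marked by an expansion of granulocytes in the BM. The granule genes therefore divide by stage, and the comparison asks how much of each stage's RNA was present in Treg libraries of CML and naive mice.

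The upstream sequences of a pair of early genes and a pair of late genes are shown because they differ in motifs of myeloid transcription factors. They are the 250 bases before the RefSeq start of the gene (GRCm38.p6), read 5′ to 3′ on the strand of the gene. Capitals mark matches on either strand to GAGGAA, a form of the site bound by PU.1, and to TTNCNNAA (N for any base), a partial form of the site bound by C/EBP factors.
Elane (chr10:79886062-79886311, + strand): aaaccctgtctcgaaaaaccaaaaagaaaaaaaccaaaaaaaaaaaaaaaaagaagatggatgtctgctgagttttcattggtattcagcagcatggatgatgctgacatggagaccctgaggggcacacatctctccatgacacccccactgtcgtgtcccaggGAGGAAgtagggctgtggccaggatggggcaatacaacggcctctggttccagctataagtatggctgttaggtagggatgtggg
Mpo (chr11:87793534-87793783, + strand): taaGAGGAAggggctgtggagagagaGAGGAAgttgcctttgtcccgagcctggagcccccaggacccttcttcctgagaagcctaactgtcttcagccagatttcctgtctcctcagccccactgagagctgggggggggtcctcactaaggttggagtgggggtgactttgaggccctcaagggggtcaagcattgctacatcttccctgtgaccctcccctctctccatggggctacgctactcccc
Ngp (chr9:110419558-110419807, + strand): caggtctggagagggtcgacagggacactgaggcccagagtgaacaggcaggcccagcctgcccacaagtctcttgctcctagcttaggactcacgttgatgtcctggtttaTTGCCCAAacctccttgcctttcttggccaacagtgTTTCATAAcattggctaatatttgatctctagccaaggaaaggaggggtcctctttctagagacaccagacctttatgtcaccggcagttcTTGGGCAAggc
Ltf (chr9:111019042-111019291, + strand): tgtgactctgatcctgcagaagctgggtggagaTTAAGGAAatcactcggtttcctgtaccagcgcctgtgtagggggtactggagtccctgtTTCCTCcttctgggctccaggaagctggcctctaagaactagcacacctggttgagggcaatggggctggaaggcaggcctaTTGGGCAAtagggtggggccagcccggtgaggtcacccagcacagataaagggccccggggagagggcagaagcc
GAGGAA was found in 23.3% of 32851 mouse promoters of the same length and TTNCNNAA in 36.8%. All 4 early genes held GAGGAA and 0 of 4 held TTNCNNAA. Of the 4 late genes, 3 (Ngp, Ltf and Lcn2) held TTNCNNAA and 2 (Ltf and Lcn2) held GAGGAA. TTNCNNAA was also found upstream of both S100a8 and S100a9, and GAGGAA upstream of S100a8. The first letter of the match lay 85 bases before the start of Elane and 247 and 224 bases before the start of Mpo. In Ngp, the 3 matches began 138, 102 and 11 bases before the start. The matches in Ltf and the last match in Ngp lie on the opposite strand and are printed as their reverse complement, and no matches overlapped. A match is a description of letters, and no binding was measured here.

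Values are given in RPKM (reads scaled to the coding length of the gene and the depth of the library), the unit read from the deposited numbers. Multiplied by the coding length and the depth of the library, the values of the 10 genes fell on whole reads, which gave the reads behind each of them. The estimated depth was 7614817, 829024 and 2285493 reads in the CML libraries (replicates 1 to 3) and 5187183, 8770097 and 9751960 reads in the naive libraries. CML replicate 2 therefore had the lowest depth, and 1 read of Ngp, for example, was worth far more RPKM there than in the other libraries. The T cell identity of all 6 libraries was clear in the values: Foxp3, the transcription factor that defines Tregs, measured 468, 299 and 427 RPKM in CML libraries and 297, 367 and 349 RPKM in naive libraries, and all 13 genes of a T cell and Treg list (Cd4, Cd3e, Il2ra, Ctla4 and others) were detected. The 5 most abundant features with LOC names took 36.1% of the summed values in CML replicate 2, compared with 1.31% to 10.1% in the other libraries. Without these features and with libraries rescaled to the same sum, log2 fold changes of the granule genes moved little (Mpo from 0.94 to 1.09, Ngp from 1.35 to 1.48, CML against naive), and 0 granule genes were called.

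**Figure D1:**
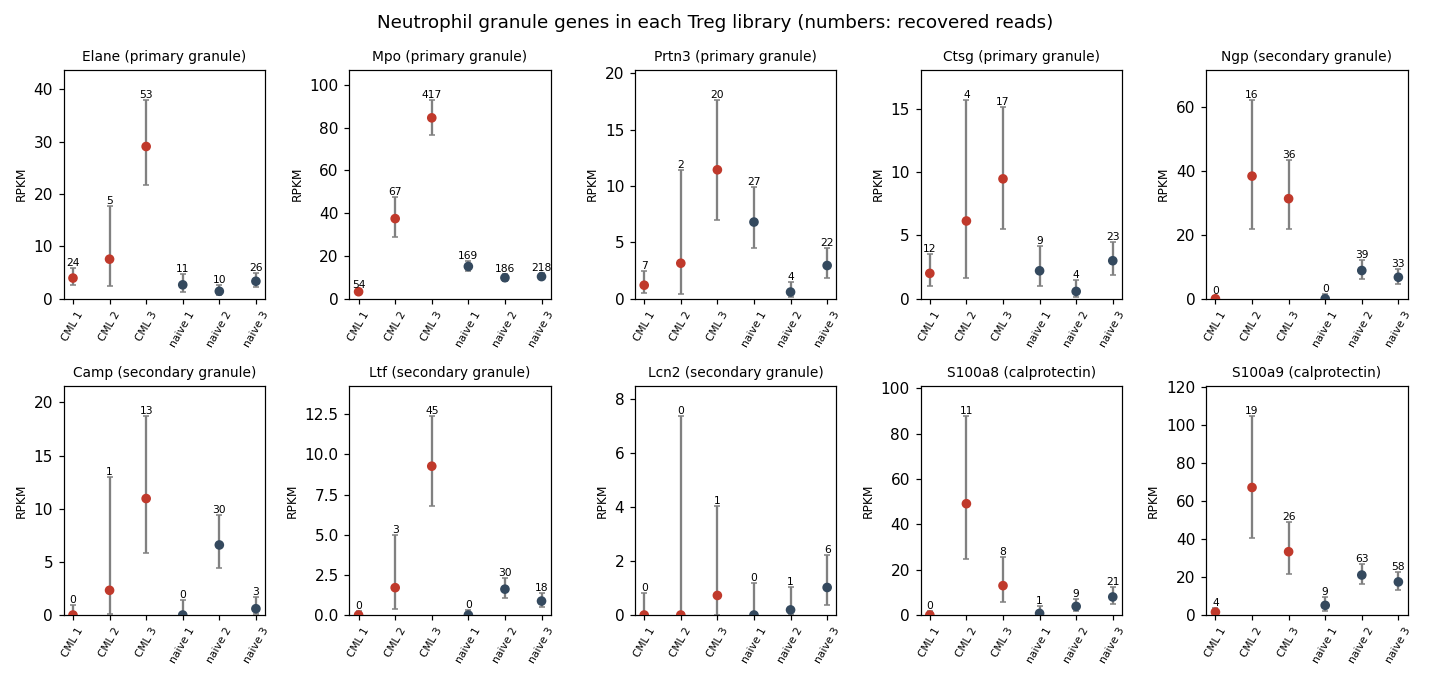
RPKM of each of the 10 granule genes in each library, with CML in red and naive in dark blue. Bars are 95% Poisson intervals of the read count, which stands above each point. CML replicate 1 lies at the bottom of the CML group for all 10 genes, with Lcn2 tied at 0. The highest value lies in CML replicate 3 for 6 genes, in CML replicate 2 for 3 genes and in naive replicate 3 for Lcn2.

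Among the early genes, Elane was the member whose groups did not overlap. Elane (chr10:79886312-79888216, + strand, GRCm38.p6 here and for the other genes) encodes neutrophil elastase, a serine protease that degrades matrix and bacterial proteins. It measured 3.95, 7.56 and 29.1 RPKM in CML replicates 1 to 3, from 24, 5 and 53 reads, and 2.66, 1.43 and 3.34 RPKM in the naive replicates, from 11, 10 and 26 reads. Each CML library lay above each naive library, but by counting error only CML replicate 3 (95% Poisson interval 21.8 to 38.0 RPKM) was apart from all naive libraries. The intervals of CML replicates 1 (2.53 to 5.88 RPKM) and 2 (2.45 to 17.6 RPKM) overlapped those of naive replicates 1 (1.33 to 4.75 RPKM), 2 (0.685 to 2.63 RPKM) and 3 (2.18 to 4.90 RPKM). The means were 13.5 ± 13.6 RPKM in CML and 2.48 ± 0.969 RPKM in naive Tregs (SD, n = 3 each). The log2 fold change, CML against naive on the log2(RPKM + 1) scale, was 1.68 (SE 0.69), with a limma p of 0.041 before and 0.496 after Benjamini-Hochberg adjustment over 13923 features. The exact 2-sided permutation test of the means gave p = 0.1, the smallest value that 3 mice against 3 allow. The p-values measure the spread between mice.

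Mpo (chr11:87793784-87804412, + strand) encodes myeloperoxidase, the heme enzyme that makes hypochlorous acid, and had the most reads of all 10 genes. It measured 3.29, 37.5 and 84.6 RPKM in CML replicates 1 to 3, from 54, 67 and 417 reads, and 15.1, 9.83 and 10.4 RPKM in the naive replicates, from 169, 186 and 218 reads. The naive libraries were close to each other, whereas the CML libraries lay on both sides of them. CML replicate 1 (2.47 to 4.29 RPKM) was below all naive libraries (lowest bound 8.47 RPKM) and CML replicates 2 (29.0 to 47.6 RPKM) and 3 (76.7 to 93.1 RPKM) were above them (highest bound 17.6 RPKM), beyond counting error in each case. The log2 fold change of 0.94 (SE 0.96) had an adjusted limma p of 0.753. An annotated antisense gene, Gm11505, overlaps Mpo, and as no strand-specific counting is stated, reads of the pair cannot be told apart.

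Prtn3 (chr10:79879667-79883174, + strand), which encodes the serine protease proteinase 3, lies next to Elane with a gap of 3137 bases on chromosome 10. Its values were 1.20, 3.15 and 11.4 RPKM in CML replicates 1 to 3 and 6.80, 0.596 and 2.95 RPKM in the naive replicates. They came from 7, 2 and 20 reads in CML and 27, 4 and 22 reads in naive libraries. Here naive replicate 1 exceeded CML replicates 1 and 2, and the groups overlapped. Despite the short distance, the ratio of Elane to Prtn3 ranged from 2.40 to 3.29 in CML libraries and was 0.391, 2.40 and 1.13 in naive libraries. The ratio rests on few reads, with 5 of Elane and 2 of Prtn3 in CML replicate 2. Ctsg (chr14:56099885-56102574, - strand) encodes cathepsin G, a further serine protease of the primary granule. It measured 2.01, 6.14 and 9.46 RPKM in CML and 2.21, 0.580 and 3.001 RPKM in naive replicates 1 to 3, so that CML replicate 1 fell within the naive range. These values came from 12, 4 and 17 reads in CML and 9, 4 and 23 reads in naive libraries. Log2 fold changes were 0.40 (SE 0.82) for Prtn3 and 1.16 (SE 0.63) for Ctsg, with adjusted limma p values of 0.885 and 0.592.

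The late genes were marked by libraries without a single read. Ngp (chr9:110419808-110423012, + strand) encodes neutrophilic granule protein, a cystatin-like protein of the secondary granule. It measured 0, 38.3 and 31.2 RPKM in CML replicates 1 to 3, from 0, 16 and 36 reads, and 0, 8.82 and 6.72 RPKM in naive replicates 1 to 3, from 0, 39 and 33 reads. A count of 0 allows up to 0.782 RPKM in CML replicate 1 and 1.148 RPKM in naive replicate 1 (3 reads), which is below the other 4 libraries. In those, the CML pair (lower bounds 21.9 RPKM each) lay above the naive pair (upper bounds 12.1 and 9.43 RPKM). Over all 6 libraries, the groups overlapped and the log2 fold change was 1.35 (SE 1.48), with an adjusted limma p of 0.768.

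Camp (chr9:109847377-109849456, - strand) encodes cathelicidin, the precursor of an antimicrobial peptide, and Ltf (chr9:111019292-111042766, + strand) the iron-binding protein lactoferrin. Both had reads in the same 4 libraries as Ngp. Camp measured 0, 2.32 and 11.0 RPKM in CML and 0, 6.59 and 0.593 RPKM in naive replicates 1 to 3. The value of CML replicate 2 rests on 1 read (0.059 to 12.9 RPKM), and only CML replicate 3 and naive replicate 2 had more than 3 reads of Camp. Ltf measured 0, 1.70 and 9.27 RPKM in CML and 0, 1.61 and 0.869 RPKM in naive replicates 1 to 3, and the 45 reads of CML replicate 3 (6.76 to 12.4 RPKM) set it above the other libraries. Log2 fold changes were 0.57 (SE 1.07) for Camp and 0.84 (SE 0.89) for Ltf, with adjusted limma p values of 0.874 and 0.763. Lcn2 (chr2:32384637-32387739, - strand), which encodes the siderophore-binding protein lipocalin 2, had 0, 0 and 1 reads in CML and 0, 1 and 6 reads in naive libraries. Its mean was below the limit of 1 RPKM for testing, and in CML replicate 2 the depth would have left up to 6.001 RPKM unseen.

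Both libraries numbered 1 thus held 0 reads of all 4 late genes, although with 7614817 and 5187183 reads they were deeper than CML replicates 2 and 3. Of the 13923 features tested, which do not include Lcn2, 238 (1.71%) shared this absence in both libraries. None of the 4 early genes did, with 97 early reads in CML replicate 1 and 216 in naive replicate 1. Of genes with reads, 4 of 9 mature neutrophil and 4 of 10 eosinophil, basophil and mast cell genes shared it. So did 3 of 16 further secondary and tertiary granule genes, 3 of 14 monocyte genes and 1 of 14 further primary granule genes. The absence was also shared by 2 of 6 B lineage, 1 of 4 platelet and 1 of 6 stem and progenitor genes. None of 11 erythroid, 7 dendritic cell or 13 T cell and Treg genes shared it. The lists count every gene with reads, also those below the limit of 1 RPKM, whereas the 1.71% covers tested features only. It is therefore no background for the counts of the lists. Among the mature neutrophil genes that shared the absence, only Wfdc21 was tested. The labels name no batch that the libraries numbered 1 share.

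The calprotectin genes gave the highest single values after Mpo. S100a9 measured 1.54, 67.0 and 33.3 RPKM in CML replicates 1 to 3, from 4, 19 and 26 reads, and 5.07, 21.001 and 17.4 RPKM in naive replicates 1 to 3, from 9, 63 and 58 reads. S100a8 measured 0, 49.1 and 12.96 RPKM in CML, from 0, 11 and 8 reads, and 0.714, 3.80 and 7.98 RPKM in naive libraries, from 1, 9 and 21 reads. In both genes the replicates numbered 1 were the lowest of their group and CML replicate 2 was the highest of all, with wide intervals (40.3 to 104.6 RPKM for S100a9 and 24.5 to 87.9 RPKM for S100a8). S100a8 (chr3:90669071-90670034, + strand) and S100a9 (chr3:90692630-90695721, - strand) lie on opposite strands with a gap of 22595 bases between them. The ratio of S100a8 to S100a9 was 0, 0.733 and 0.390 in CML and 0.141, 0.181 and 0.459 in naive replicates 1 to 3, below 1 in every library. Log2 fold changes were 1.08 (SE 1.34) for S100a8 and 0.42 (SE 1.14) for S100a9, with adjusted limma p values of 0.799 and 0.916.

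Of the 9 genes tested, 0 were called at an adjusted p under 0.05 and a fold of at least 1.5, compared with 24 of all 13923 features (0.172%, and 0.0431% higher in CML). These 24 were 6 higher and 18 lower in CML Tregs, a split that became 20 and 25 without the 5 abundant LOC features, and 21 and 32 with libraries scaled to the same 75th percentile. At an unadjusted p under 0.05 with the same fold, 1 gene (Elane) passed, higher in CML, as did 2.61% of all features in that direction and 8.55% in either. Groups did not overlap, with CML above, for 1 of the 9 genes and for 4.84% of all features (17.1% in either direction). All 9 log2 fold changes were above 0, compared with 35.7% of all features, and 4 (Elane, Ngp, Ctsg and S100a8) were at least 1, compared with 3.43%. The filter on the mean of all 6 libraries shaped this count. It left out Lcn2, whose mean was lower in CML (0.242 against 0.403 RPKM). Ltf passed it only through its CML values (mean 3.66 RPKM, against 0.826 RPKM in naive Tregs). The median was 0.94 for the 9 genes and -0.18 for all features tested. With the reads of the libraries weighted by limma-voom, an alternative added after the data were seen, 6 of the 9 log2 fold changes were below 0, the lowest being -1.56 for Ngp. Leaving out 1 library turned 4 of the 9 below 0 at their lowest: Prtn3 (-0.28) and Camp (-0.33) without CML replicate 3, and S100a8 (-0.17) and S100a9 (-0.53) without CML replicate 2. Ltf has no fit without CML replicate 3, as its mean was then below the limit of 1 RPKM for testing. With library weights Ngp (-0.47), Camp (-0.10), S100a8 (-0.68) and S100a9 (-1.03) were below 0. Without CML replicate 1 all 9 were larger, up to 3.07 for Ngp, and the lowest adjusted limma p was 0.142, for Mpo. On the log2(RPKM + 1) scale, changes of low genes depend on the pseudocount. With a pseudocount of 0.1, the log2 fold change of S100a8 was 0.44 in place of 1.08, and that of Ctsg 1.56 in place of 1.16. In bulk RNA, fewer cells of a type and less RNA per cell cannot be told apart.

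**Figure D2:**
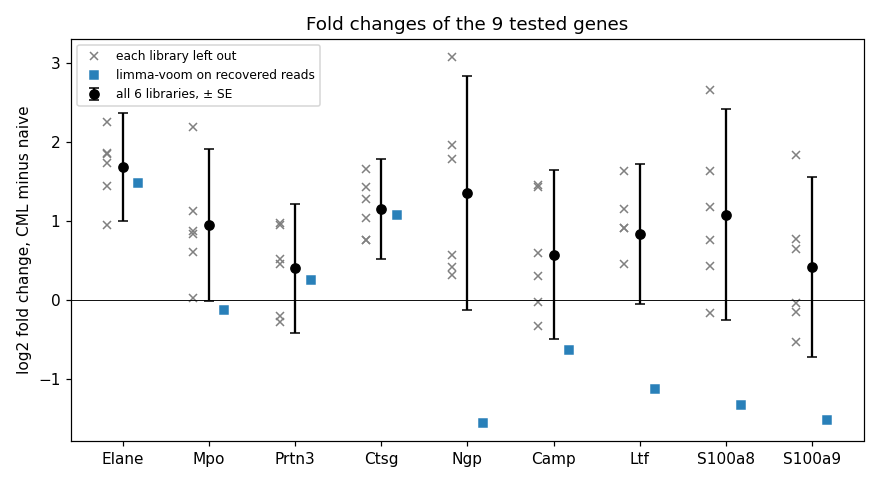
Log2 fold change of CML against naive Tregs on the log2(RPKM + 1) scale for the 9 tested genes. Black points are the fit of all 6 libraries with its SE, crosses the fits without each library in turn, and blue squares limma-voom on the recovered reads, whose scale is log2 reads relative to depth. Ltf has no cross for the fit without CML replicate 3. Elane and Ctsg stay above 0 in all of these fits, whereas Ngp, Ltf, S100a8 and S100a9 lie above 0 in the fit of all libraries and below -1 in limma-voom.

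Summed over each set, the early genes gave 10.4, 54.3 and 134.5 RPKM in CML replicates 1 to 3 and 26.8, 12.4 and 19.7 RPKM in naive replicates 1 to 3. The late genes gave 0, 42.3 and 52.2 RPKM in CML and 0, 17.2 and 9.20 RPKM in naive replicates 1 to 3. CML replicate 1 was thus below every naive library for the early sum, and CML replicates 2 and 3 were above every naive library for both sums. The calprotectin genes gave 1.54, 116.1 and 46.2 RPKM in CML and 5.79, 24.8 and 25.4 RPKM in naive replicates 1 to 3. Group means of the early sum were 66.4 ± 62.9 RPKM in CML and 19.6 ± 7.17 RPKM in naive Tregs, and those of the late sum 31.5 ± 27.7 and 8.80 ± 8.61 RPKM (SD, n = 3 each).

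The CML mean was 3.39 times the naive mean for the early sum and 3.58 times for the late sum, with group ranges that overlapped in both. The log2 of the early factor over the late factor was -0.08, and it changed sign with the libraries and genes included (0.80 without naive replicate 1, -1.26 without naive replicate 2, and 0.56 without Ngp). The factors depended on single mice. Without CML replicate 3 they were 1.65 and 2.40, without CML replicate 2 they were 3.69 and 2.96, and without CML replicate 1 they were 4.81 and 5.37. For the calprotectin genes the factor was 2.93, and 1.28 without CML replicate 2. Without both libraries numbered 1, the factors were 5.88 for the early and 3.58 for the late genes. No p is given for sums over chosen genes.

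Within a library, the balance of stages varied in both groups. Early genes made up 100%, 56.2% and 72.0% of the early and late RPKM in CML replicates 1 to 3 and 100%, 41.9% and 68.1% in naive replicates 1 to 3. In naive replicate 2 late transcripts outweighed early transcripts, and in the other libraries early transcripts prevailed. Early RPKM exceeded late RPKM at least 13.4-fold in CML replicate 1 and at least 23.3-fold in naive replicate 1, with 3 reads of Ngp taken as the limit of a count of 0 over the set. The ratio was 1.28 and 2.58 in CML replicates 2 and 3 and 0.723 and 2.14 in naive replicates 2 and 3, so that the CML and naive ratios overlapped. Mpo provided 31.5% of the early RPKM in CML replicate 1 and 52.7% to 79.1% in the other 5 libraries.

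**Figure D3:**
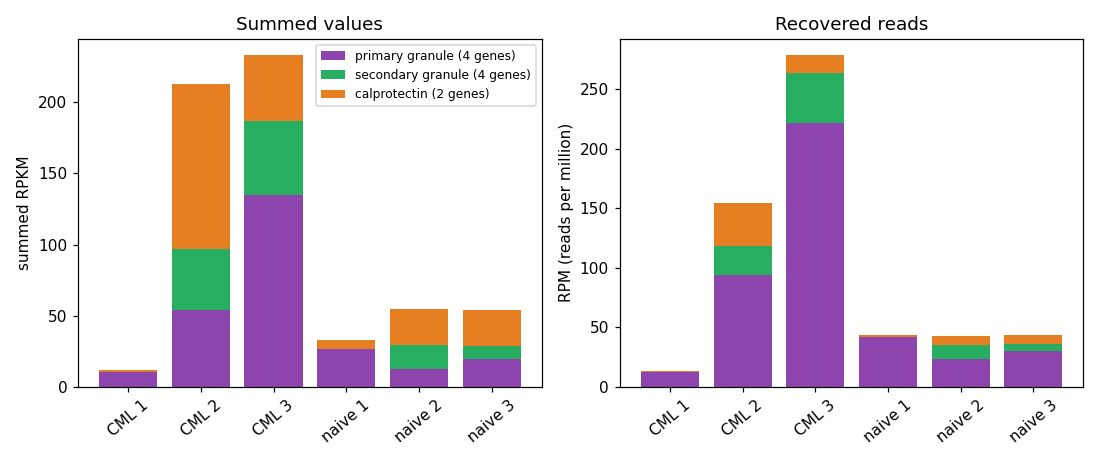
Granule transcripts in each library as summed RPKM (left) and as RPM, the recovered reads relative to the reads of the library (right), stacked by primary granule, secondary granule and calprotectin genes. The naive libraries reach 42.9 to 43.9 RPM and the CML libraries 13.3, 154 and 278, and the libraries numbered 1 hold no secondary granule reads.

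Over the summed 10 genes, the CML libraries were spread more widely than the naive libraries. They amounted to 13.3, 154 and 278 RPM (recovered reads scaled to depth) in CML replicates 1 to 3 and to 43.6, 42.9 and 43.9 RPM in naive replicates 1 to 3. The highest naive library was thus 1.02 times the lowest, and the highest CML library 20.98 times the lowest. In RPKM, in which short genes such as S100a8 weigh more, the sums were 12.0, 212.8 and 232.9 in CML and 32.6, 54.4 and 54.2 in naive Tregs, a naive spread of 1.67 times. The summed T cell and Treg markers, by comparison, differed by 1.38 times between the highest and the lowest of all 6 libraries. CML replicates 2 and 3, with the high granule values, were also the libraries of lowest depth, and the part of depth in these values was not tested. Relative to Foxp3, the 10 genes summed to 2.56%, 71.1% and 54.5% of the Foxp3 RPKM in CML and to 11.0%, 14.8% and 15.5% in naive replicates 1 to 3. As a share of all summed values they ranged from 0.00174% in CML replicate 1 to 0.0313% in CML replicate 3.

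The wider granule program was covered by 2 further lists. Of 15 further genes of primary granules and promyelocytes, 11 were tested and 0 called, with 7 higher in CML and a median log2 fold change of 0.40. Srgn (serglycin, the proteoglycan that packs granule proteases), Cst7 (cystatin F) and Nkg7 (a protein of cytotoxic granules) had CML values above all naive values, with log2 fold changes of 0.65, 1.31 and 1.36 and adjusted limma p values of 0.282, 0.282 and 0.370. These were 3 of the 11 tested, compared with 4.84% of all features with CML above (17.1% in either direction). All 3 are also expressed by lymphocytes. Cebpa, the transcription factor of early granulocyte commitment, had CML values below all naive values, with 2.06, 0 and 3.70 RPKM against 10.6, 4.05 and 4.87 RPKM, and its adjusted limma p was 0.528. Of 18 further genes of secondary and tertiary granules, 13 were tested and 0 called, with 8 higher in CML and a median of 0.19. The highest among them, Itgb2 (the integrin beta chain CD18) and Cyba (a subunit of the phagocyte oxidase), are also expressed by T cells and other leukocytes. Itgb2 was the 1 gene of the 13 with CML values (197.1 to 242.6 RPKM) above all naive values (176.5 to 183.2 RPKM), at an adjusted limma p of 0.552. Mmp8 (neutrophil collagenase) and Olfm4 (olfactomedin 4), secondary granule genes like Ngp and Ltf, had no reads in any library.

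Markers of mature neutrophils were mostly absent. Of 21 genes, 12 had no reads in any library, among them Ly6g, the surface antigen by which mouse neutrophils are sorted, and Cxcr2, the receptor of neutrophil-attracting chemokines. The list summed to 15.01 to 66.8 RPKM in CML and 1.91 to 2.62 RPKM in naive libraries, and 2 genes carried this difference. Il1r2, a decoy receptor for interleukin 1 that Tregs can also express, measured 21.3, 15.4 and 12.3 RPKM in CML and 1.79, 1.80 and 0.431 RPKM in naive replicates 1 to 3. Its log2 fold change was 2.92 (SE 0.46), with an adjusted limma p of 0.077. Unlike the granule genes, it was highest in CML replicate 1. Wfdc21 measured 50.2 RPKM in CML replicate 2, 0.534 RPKM in naive replicate 3 and 0 in the other 4 libraries.

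**Figure D4:**
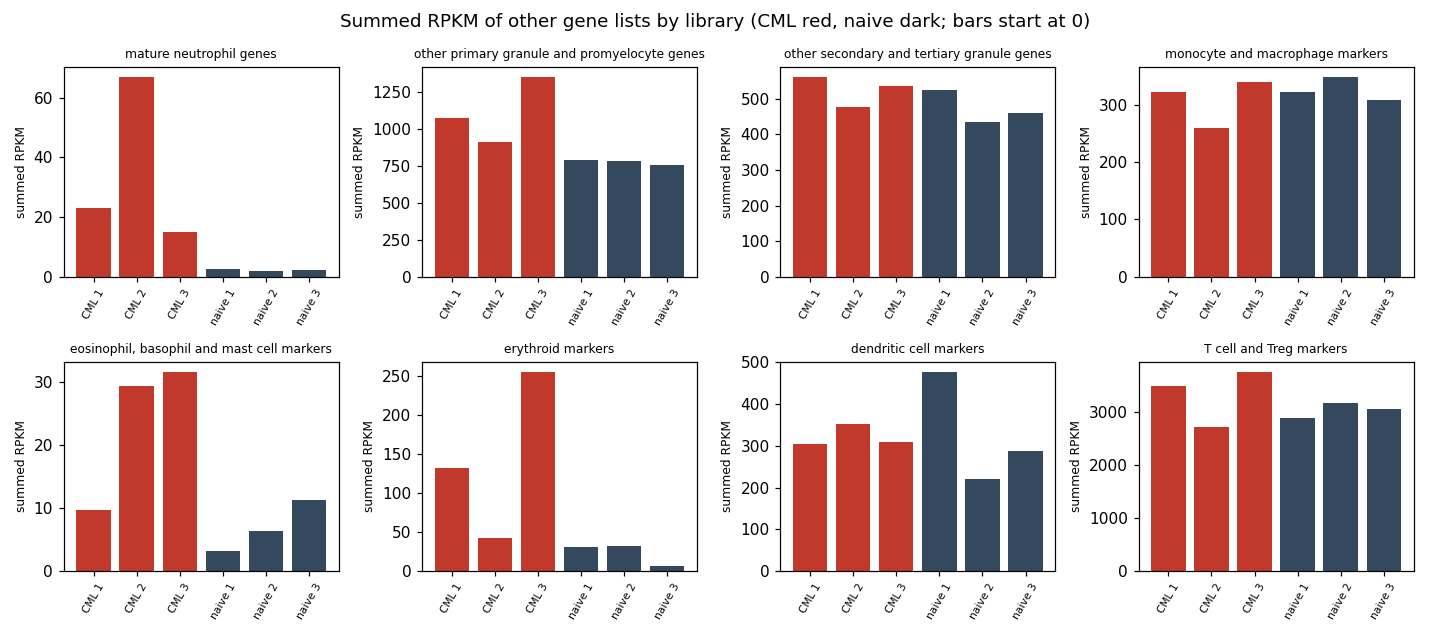
Summed RPKM of 8 other gene lists in each library, with CML in red and naive in dark blue. The T cell and Treg markers and the monocyte markers are near level over the libraries, whereas the erythroid sum is highest in CML replicate 3 and the eosinophil, basophil and mast cell sum in CML replicates 2 and 3.

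Among the lists of markers of other BM cells, the sum of the eosinophil, basophil and mast cell list was high in the same libraries as the granule genes. The 12 genes summed to 9.64, 29.4 and 31.7 RPKM in CML and 3.20, 6.42 and 11.4 RPKM in naive replicates 1 to 3, and 4 of 4 tested genes had a log2 fold change above 0, with 0 called. Prg2, the major basic protein of eosinophil granules, led the sum and measured 2.93, 14.4 and 19.5 RPKM in CML and 1.72, 0.509 and 6.10 RPKM in naive replicates 1 to 3. Gata2 (8.36 RPKM) and Ccr3 (5.58 RPKM) were highest in CML replicate 2. Other genes of the list went elsewhere. Mcpt8 measured 2.65 RPKM in CML replicate 1 and 0 in CML replicates 2 and 3. Cpa3 had no reads in CML replicates 2 and 3, and Ms4a2 had reads in naive replicate 2 alone. The erythroid list summed to 132.4, 41.8 and 255.3 RPKM in CML and 30.3, 31.6 and 5.93 RPKM in naive replicates 1 to 3, with 7 of 7 tested genes above 0, a median of 2.08 and 0 called. At an unadjusted limma p under 0.05 and a fold of at least 1.5, 4 of the 7 passed (Hbb-bt, Hbb-bs, Hba-a1 and Car2), compared with 2.61% of all features. For 3 of the 7, all CML values lay above all naive values, compared with 4.84% of all features. The globin genes Hbb-bs, Hbb-bt, Hba-a1 and Hba-a2, whose near-identical copies share reads, led this list, and in CML replicate 1 it was above all naive libraries where the sum of the granule genes was below them. The part of these cell types in the granule values was not tested.

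Monocyte and macrophage markers summed to 259.0 to 339.3 RPKM in CML and 309.0 to 347.9 RPKM in naive libraries, with 3 of 8 tested genes above 0 and 0 called. Most of this was Ctss (cathepsin S), with 204.5 to 274.6 RPKM over the 6 libraries. Cd68 (23.5 to 47.4 RPKM) and Ms4a6c (17.7 to 39.9 RPKM) were also detected in all 6 libraries. Csf1r, the receptor that defines the lineage, was below 2 RPKM in each of them. Stem and progenitor markers summed to 14.3 to 21.7 RPKM in CML and 21.4 to 23.7 RPKM in naive libraries. Flt3 (5.68 to 17.8 RPKM) led this sum and Gata1 (1.24 to 8.54 RPKM) was also detected in all libraries, with Hoxa9 and Mecom at 0 in all of them. Platelet markers summed to 1.09 to 2.84 RPKM in CML and 2.55 to 11.6 RPKM in naive libraries. Gp1ba had the highest mean (0.744 to 3.88 RPKM), and Ppbp was at 0 throughout. Dendritic cell markers summed to 304.2 to 352.3 RPKM in CML and 221.3 to 477.9 RPKM in naive libraries, led by Siglech, a receptor of plasmacytoid dendritic cells. B lineage markers summed to 455.6 to 608.2 RPKM in CML and 576.7 to 775.7 RPKM in naive libraries. These were mainly Ighm, and Igkc (52.5 to 166.0 RPKM) and Blnk (8.91 to 29.6 RPKM) were also detected in all libraries. Of the 12 genes, 6 were at 0 in all libraries, among them the transcription factor genes Pax5 and Ebf1. No gene was called in the stem, platelet, dendritic cell or B lineage lists.

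The features whose log2(RPKM + 1) values over the 6 libraries were most like the mean of the early genes were Clstn1, Tbc1d20, Smc5, Sbds and Slc25a45, with Pearson r from 0.983 to 0.996. For the mean of the late genes they were Psmd6, Sap30l, Lta4h, Lats1 and Tonsl, with r from 0.971 to 0.976. These are the highest of 7409 features over 6 points, of which 71 had r above 0.9 with the early and 55 with the late genes, and the points share depth and scaling. Their own differences between libraries were small. Clstn1, for example, measured 8.48, 13.7 and 18.6 RPKM in CML and 10.8, 7.91 and 10.8 RPKM in naive replicates 1 to 3.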

How the data were processed

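Total RNA of FACS-purified BM Tregs was amplified with the SMART-Seq v4 kit and sequenced in single reads on a NextSeq 500, and the authors used SeqMan NGen v.15 for assembly and ArrayStar v.15 for analysis. The submitters' processing notes name GRCm38 and mm10. No source used here names the unit of the deposited values, which was taken to be RPKM. Multiplied by GENCODE M21 coding length and depth, 62.8% to 65.1% of the values of at most 20 reads lay within 0.05 of a whole read in the 6 libraries, compared with 10% by chance, and the values of the 10 genes below 100 reads lay within 0.0144. Other units scaled by length would show the same steps. A value of 0.001 marks no reads and was set to 0. The study's methods name DESeq2, an FDR of 0.05 and a fold of 1.5. DESeq2 needs counts and was not run.

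CML and naive libraries were compared with limma 3.58.1 (R 4.3.3) on log2(RPKM + 1) for 13923 features with a mean of at least 1 RPKM, with a trended prior variance and Benjamini-Hochberg adjustment over all of them. Calls needed an adjusted p under 0.05 and a fold of at least 1.5. Single means were compared by exact 2-sided permutation over 20 assignments. Poisson intervals (95%) and the limit of 3 reads for a count of 0 cover counting error only, because amplified reads are not independent molecules. Other steps ran in Python 3.11.15 (scipy 1.17.1, pandas 2.3.3, numpy 2.4.6). Upstream sequences came from RefSeq (GRCm38.p6), which held all 10 genes.

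The 10 genes and the lists were chosen with earlier results of these data known. All 10 genes are named, of each list those called or up to 4 of the highest, and the 5 features most like the early and the late mean. Other genes of the lists were chosen after their values were seen. One gene of the lists, Ahsp, was not found in the tables. Alternatives covered the pseudocount, the filter, scaling, prior variance, library weights, the replicate number as a block, and each library left out.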

Additional observations from a re-analysis of the deposited data

How the results depend on the processing

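The count of 0 called granule genes held under all alternatives, with a lowest adjusted limma p of 0.142 over 147 fits of single genes. For the lists, calls were counted only with a pseudocount of 0.1, with quantile normalization and with each library left out. In these settings 0 genes of the lists were called, and calls in the other settings were not counted. Of the 147 fits, 129 kept the direction of the log2 fold change and 18 reversed it, in 7 genes, and the cause was not tested. Genes below the filter of a setting have no fit there, such as Ltf without CML replicate 3. With limma-voom on recovered reads, added after seeing the data, it was -0.12 for Mpo, -1.56 for Ngp, -0.63 for Camp, -1.13 for Ltf, -1.33 for S100a8 and -1.51 for S100a9. With library weights it was -0.47 for Ngp, -0.10 for Camp, -0.68 for S100a8 and -1.03 for S100a9. Leaving out a library gave -0.28 (CML replicate 3) and -0.20 (naive replicate 2) for Prtn3, -0.33 (CML replicate 3) and -0.03 (naive replicate 1) for Camp, and -0.17 (CML replicate 2) for S100a8. For S100a9 it gave -0.53, -0.04 and -0.15 without CML replicate 2, CML replicate 3 and naive replicate 1. With each library left out in turn, the highest log2 fold changes were 0.97 for Prtn3, 1.46 for Camp, 2.66 for S100a8 and 1.84 for S100a9, each without CML replicate 1. The log2 of the early over the late factor, -0.08, had no stable sign. It ranged from -1.26 to 0.80 with each library left out, and was 0.40 from means of log2(RPKM + 1), 0.56 without Ngp and 0.72 without both libraries numbered 1, an alternative added after seeing the data.

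Over all features, 24 were called. The count was 11 with a pseudocount of 10, 1 without a filter on low values, 13 at a mean of at least 10 RPKM, 11 with no trend, 39 with quantile normalization, 53 at the same 75th percentile, 45 without the abundant LOC features, 45 with library weights and 122 with limma-voom on the 4643 genes it could test. With each library left out it ranged from 0 to 29, with 0 without naive replicate 1 (745 at an unadjusted limma p under 0.05 and the fold) or 2 (731), 3 without naive replicate 3 and 8 without CML replicate 3. At that unadjusted p, 363 features were higher and 827 lower in CML, against 542 and 644 with quantile normalization, 579 and 610 without the LOC features, and 259 and 230 with limma-voom. Quantile normalization moved the median log2 fold change from -0.18 to -0.04. With the replicate number as a block, 1 feature and 0 granule genes were called. Over all features, libraries with the same number did not deviate together (correlations of -0.0048, -0.0016 and -0.019), and the labels tie them by number alone. For single granule genes the block lowered the SE, from 1.48 to 0.58 for Ngp and from 1.14 to 0.57 for S100a9.

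Depth limits the values of CML replicate 2 most, where 1 to 19 reads lie behind all detected granule genes but Mpo. The RPKM scaling done by the authors cannot be undone, and 3 mice a group cannot give a permutation p below 0.1.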
